A study of Drosophila melanogaster with 4 samples.

Results

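Tightly packed narrow clusters are places on the autosomal arms of the fly genome where short stretches of RNA polymerase II signal lie close beside one another. They were chosen from the combined list, which is the authors' list for both replicates together. A cluster was a member when it lay on 2L, 2R, 3L or 3R, was narrower than 4000 bp, and had a gap under 3000 bp to the cluster on each side. The first and last cluster of each arm were left out. This rule gave 496 members among 4373 autosomal clusters (11.3%) and 5826 clusters of any kind. All 496 were named as enriched, although the rule itself did not ask for that.

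The polymerase was detected with an antibody (ab5095) to serine 2 phosphorylation of the repeats in its carboxy-terminal domain, by chromatin immunoprecipitation and sequencing. The labels give 2 immunoprecipitated libraries, replicates 1 and 2, and 2 input libraries, for which separate values were not analysed here. The cells, for which the labels name no treatment, were Clone 8 (CME-W1-Cl.8+), a single male cell line of *Drosophila melanogaster* that comes from the wing disc (dorsal mesothoracic disc) of the third larval instar, fixed with 1.8% formaldehyde for 10 min. The labels do not say whether the replicates were separate cultures, so their spread may be technical.

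Polymerase that has left the promoter is phosphorylated at serine 2 by kinases such as Cdk9, the catalytic subunit of P-TEFb, and Cdk12. The mark builds up along the gene body and is highest toward the 3′ end, where factors that cleave and terminate transcripts bind it. The fly genome is compact, and neighbouring transcription units are often separated by short intergenic stretches. No annotation of the same release of the genome was used, so no cluster is assigned to a gene, and positions are in FlyBase release 5 throughout.

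The combined list rests on both replicates, so that neither replicate is independent of the choice of members. All values below are therefore descriptions with no test, and SDs are over the 2 replicates. Sequencing depth is unknown for these lists. Exact binomial intervals (95%) cover counting error over clusters only. The score of a cluster is the authors' value, read as a log2 enrichment, and what it is relative to is not stated. For comparison, isolated clusters are autosomal clusters under 4000 bp with gaps of 10000 bp or more on both sides (554 clusters), and wide clusters are autosomal ones of 4000 bp or more (1375 clusters). The other 1948 narrow autosomal clusters made up the rest.

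Tightly packed clusters were weak. In the combined list they had a median score of 0.42, against 0.51 for other narrow clusters, 0.61 for isolated clusters and 1.18 for wide ones. In replicate 1, members with a matching cluster had a median of 0.68 (n = 305), against 0.86 for isolated clusters (n = 465). In replicate 2 the medians were 0.61 (n = 337) and 0.77 (n = 428). Other narrow clusters lay between, at 0.78 in replicate 1 (n = 1457) and 0.66 in replicate 2 (n = 1506). Packed clusters were thus lower than isolated ones in each list, by 0.17 ± 0.02 on the log2 scale over the replicates (SD, n = 2). The difference between packed and isolated clusters was larger than the spread between the replicates.

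The scores of packed clusters spanned a narrower range than those of isolated ones. In the combined list the central 80% of packed clusters, from the 10th to the 90th percentile, lay between 0.27 and 1.22, and that of isolated clusters between 0.13 and 2.02. The width of this range over the replicates was 1.19 ± 0.20 for packed clusters and 1.84 ± 0.23 for isolated clusters (SD, n = 2). High scores were scarcer among packed clusters, since a log2 enrichment of at least 1, which is a 2-fold enrichment, was reached by 71 of 496 packed clusters (14.3%) and 184 of 554 isolated clusters (33.2%). Over other narrow clusters the share reaching a score of 1 was 24.6%, and over all autosomal clusters it was 36.2%. Very low scores were scarcer than among isolated clusters, but the share was near that of all autosomal clusters. Scores below 0.25 were held by 38 packed clusters (7.66%), 100 isolated clusters (18.1%) and 373 of all 4373 autosomal clusters (8.53%). The isolated clusters therefore reached further in both directions, as the plot of scores by spacing and width shows.

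**Figure D1:**
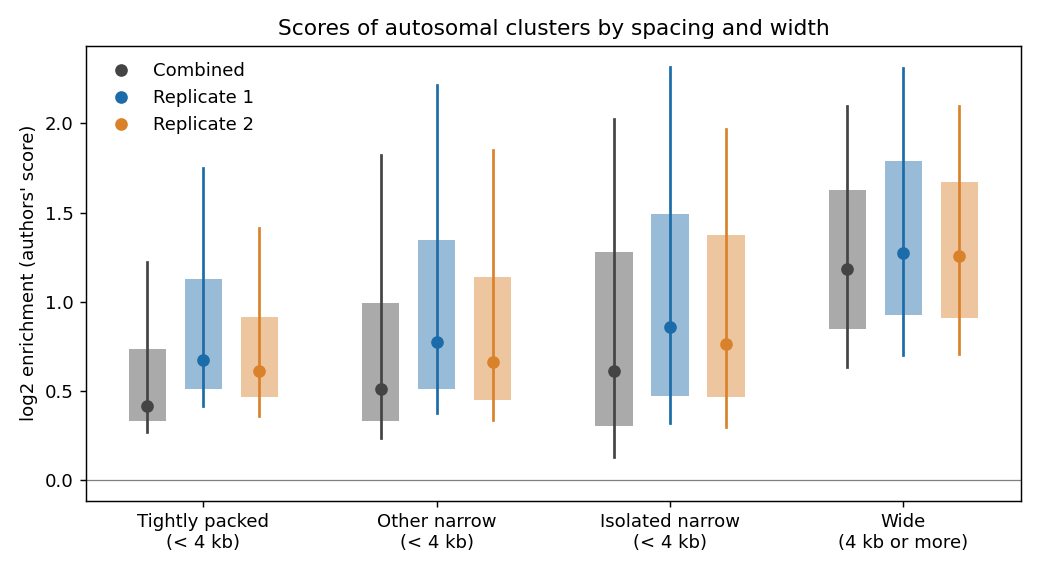
log2 enrichment (the authors' score) of tightly packed, other narrow, isolated narrow and wide autosomal clusters in the combined list and in replicates 1 and 2, where points are medians, bars run from the 25th to the 75th percentile and lines from the 10th to the 90th. In the combined list the packed clusters have the lowest median, 0.42, and the shortest line, from 0.27 to 1.22.

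By the median, packed clusters were not narrower than isolated ones, although their 25th percentile was lower. Their median width was 2194 bp, against 2131 bp for isolated clusters, and the range from the 25th to the 75th percentile ran from 1670.75 to 2865 bp against 1864.75 to 2516 bp. When clusters were matched in width classes of 500 bp, packed clusters were lower by 0.31 in replicate 1 and 0.24 in replicate 2 on the log2 scale (mean difference -0.27 ± 0.05, SD, n = 2). The contrast was widest at middle widths. Between 2500 and 2999 bp the median was 0.67 for packed clusters (n = 61) and 1.31 for isolated clusters (n = 67) in the combined list, with 0.81 and 1.37 in replicate 1 and 0.73 and 1.28 in replicate 2. Between 1500 and 1999 bp the order turned, with medians of 0.30 for packed clusters and 0.20 for isolated clusters in the combined list. There they were 0.43 and 0.35 in replicate 1, and 0.40 and 0.33 in replicate 2. From 1301 to 1499 bp the order turned in the combined list only, at 0.31 for packed clusters and 0.20 for isolated ones. The replicate 1 medians there were 0.31 and 0.40, and those of replicate 2 were 0.42 and 0.43. In each class from 2000 bp upward packed clusters were lower in every list. Among packed clusters the score rose with width, with a Spearman correlation of 0.640 across the 496 clusters of 1 list, against 0.691 across the 554 isolated clusters. Width and gap are values that the rule used. Among members, whose gaps the rule holds under 3000 bp, the smaller gap had little relation to the score (Spearman correlation 0.12 across the 496 clusters). That value covers only this short range and does not speak to longer gaps.

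A contrast in the same direction appeared when the rule was applied within each replicate list by itself. It found 378 packed clusters in replicate 1 and 358 in replicate 2 (368 ± 14.1, SD, n = 2), or 9.17 ± 0.17% of the autosomal clusters of a replicate. Their medians were 0.68 in replicate 1 and 0.59 in replicate 2, against 0.86 and 0.78 for the isolated clusters of the same lists. The difference, -0.19 ± 0.0056 (SD, n = 2), was close to the one found through the members of the combined list. These packed clusters were only partly the same regions as the members. Of the 378 in replicate 1, 166 (43.9%) had their largest overlap with a member, and of the 358 in replicate 2, 220 (61.5%).

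Little over 50% of the members were found again in both libraries. Of the 496 members, 267 overlapped a cluster in both replicates by at least 1 bp, 53.8% (49.3 to 58.3%). Over all autosomal combined clusters that share was 76.3%, and over isolated clusters it was 70.4% (390 of 554, 66.4 to 74.2%). Over other narrow clusters it was 67.5% (1315 of 1948). A further 44 members were found in replicate 1 alone and 77 in replicate 2 alone, and 108 (21.8%) in neither. In the single replicates 62.7% of members were found in replicate 1 and 69.4% in replicate 2, against 83.9% and 77.3% of isolated clusters. The library that held more of the packed clusters, replicate 2, was not the one that held more of the isolated ones. The share for packed clusters was below that for isolated ones in each replicate, with means of 66.0 ± 4.70% and 80.6 ± 4.72% (SD, n = 2).

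The share found in both replicates depended on width, and it was lower for packed clusters in each class from 1500 bp upward. Of the 55 members narrower than 1301 bp, the narrowest width in either replicate list, 0 were found in both (exact upper bound 6.49%), and neither was any of the 35 isolated or 172 other narrow clusters of that width. In the combined list the narrowest member and the narrowest isolated cluster were each 1001 bp wide. Clusters under 1301 bp made up 11.1% of members and 6.32% of isolated clusters. Among those of 1301 bp or more, 60.5% of members (267 of 441) and 75.1% of isolated clusters (390 of 519) were found in both. From 1500 to 1999 bp, 17.0% of packed clusters and 37.2% of isolated clusters were found in both. The share then rose steeply, to 76.1% of packed clusters (102 of 134) and 95.3% of isolated clusters (203 of 213) between 2000 and 2499 bp. Among all members of 2000 bp or more it was 81.8% (251 of 307, 77.0 to 85.9%), against 95.5% of isolated clusters (337 of 353, 92.7 to 97.4%). Members found in both replicates had a median combined score of 0.71 and a median width of 2620 bp, and members found in neither had 0.34 and 1337.5 bp.

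**Figure D2:**
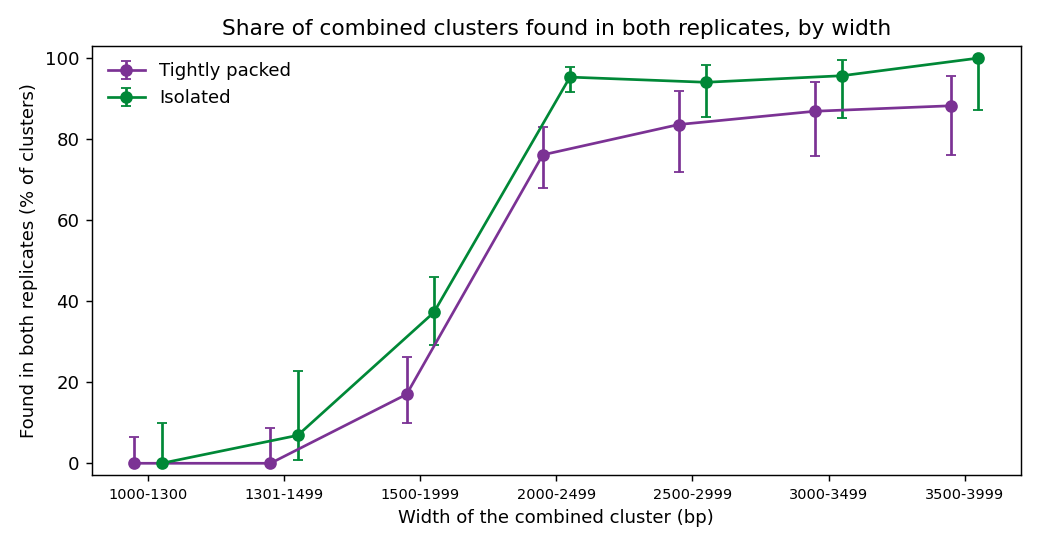
Share of tightly packed and of isolated combined clusters that overlap a cluster in both replicates (vertical axis, %), by width class in bp (horizontal axis), with exact 95% binomial intervals. Between 2000 and 2499 bp the share is 76.1% for packed clusters and 95.3% for isolated clusters, and no member under 1500 bp is found in both.

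Members found in both libraries had similar scores in them, although their ranks corresponded less closely than those of the other classes. Over 262 members with a mutual best match in each replicate, the Pearson correlation of the replicate scores was 0.915 and the Spearman correlation 0.844, across clusters of the same 2 libraries. The score was lower in replicate 2 for 188 of them (71.8%), with a mean difference of -0.12 ± 0.25 (replicate 2 minus replicate 1, SD over clusters). It was also lower in replicate 2 for 76.7% of matched isolated clusters and 67.8% of all matched autosomal clusters. Isolated clusters differed more, by -0.22 ± 0.29 over 390 matches. Edges were also close, with median distances between the replicates of 80.5 bp at the start and 77.5 bp at the end of a member, against 44 and 42 bp for isolated clusters.

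The short gaps beside members were present in the libraries too at nearly all places where both flanking clusters were found. The members had 840 different gaps beside them, from 3 to 2996 bp long with a median of 1010.5 bp, and 263 of the gaps (31.3%) were under 500 bp. A gap can be judged in a replicate when both clusters beside it are found there, which was so for 441 gaps in replicate 1 and 512 in replicate 2. A single replicate cluster ran across the gap at 8 of 441 (1.81%, 0.786 to 3.54%) in replicate 1 and 9 of 512 (1.76%, 0.807 to 3.31%) in replicate 2. Over all judged autosomal gaps under 3000 bp the shares were 1.04% and 2.3%, so that bridging was rare beside members and elsewhere.

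The gaps were chosen for being short in the combined list, and their lengths in the replicates are a description of gaps so chosen. Where no cluster ran across the gap, it was longer in the replicate at 85.5% of 433 gaps in replicate 1 and 84.1% of 503 in replicate 2. Over all autosomal gaps under 3000 bp the shares were 86.0% and 85.3%. The median gap was 1607 bp in replicate 1 against 1289 bp for the same gaps in the combined list. In replicate 2 it was 1486 bp against 1200 bp. Of these gaps, 88.7% in replicate 1 and 92.0% in replicate 2 were under 3000 bp there, against 86.5% and 92.2% over all autosomal gaps of that length. Gap lengths in the combined list and the replicate had Spearman correlations of 0.833 and 0.866 across gaps that share the same reads.

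**Figure D3:**
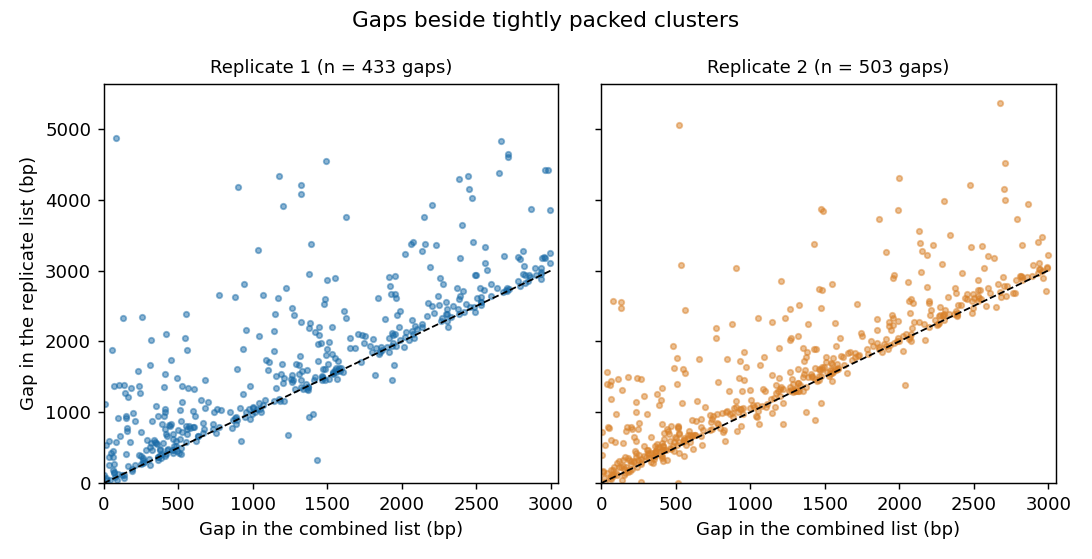
Length of each gap beside a tightly packed cluster in replicate 1 (left, 433 gaps) and replicate 2 (right, 503 gaps) on the vertical axis, against its length in the combined list on the horizontal axis, both in bp. Most points lie on or above the dashed line of equal lengths, with 85.5% of gaps longer in replicate 1 and 84.1% longer in replicate 2, against 86.0% and 85.3% over all autosomal gaps under 3000 bp.

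Only some of the members found in a replicate also met the whole rule there, and members that met it are by definition among those found. Over all autosomal clusters of a replicate list, the rule was met by 9.29% in replicate 1 and 9.05% in replicate 2. Of the 496 members, 165 (33.3%) overlapped a cluster that met the whole rule within replicate 1, and 218 (44.0%) one that did so in replicate 2 (38.6 ± 7.56%, SD, n = 2). Both replicates met the rule at 121 members (24.4%), whose median combined score was 0.77. Counted over the members found, the rule was met by 165 of 311 (53.1%) in replicate 1 and 218 of 344 (63.4%) in replicate 2. Members that were found but did not meet the rule mostly failed on spacing, which with width was a value the members were chosen on. Their matching cluster was 4000 bp or wider at 0 of 140 such members in replicate 1 and at 1 of 119 in replicate 2. At the others a gap beside the matching cluster was not under 3000 bp. Failing on width was unlikely beforehand. Members matched in both replicates had median widths of 2233.5 and 2301 bp there, against 2632 bp in the combined list. Whether a neighbour was not found or the gap was longer was not counted. In the opposite direction, 208 of the 378 packed clusters of replicate 1 (55.0%) and 133 of the 358 of replicate 2 (37.2%) had their largest overlap with a wide cluster of the combined list, and 166 (43.9%) and 220 (61.5%) with a member. Over all autosomal clusters of a replicate, 44.7% in replicate 1 and 42.1% in replicate 2 had their largest overlap with a wide cluster. The corresponding shares with a member were 7.52% and 8.59%. The 208 and 133 packed clusters lay in 166 and 112 different wide clusters.

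Members scored below both neighbours more often than above both. A member was lower than both of its neighbours in 227 of 496 cases (45.8%) and higher than both in 97 (19.6%), and the same held for 41.5% and 28.2% of isolated clusters. The stronger neighbour exceeded the member by a median of 0.57 on the log2 scale (combined), 0.61 in replicate 1 (198 members with all 3 clusters matched) and 0.57 in replicate 2 (243 members). In those replicate comparisons the member was the lowest of the 3 clusters in 44.4% and 46.9%. In the combined list the stronger neighbour exceeded isolated clusters by a median of 0.52 and other narrow clusters by 0.55. Wide neighbours were common beside narrow clusters of every class. Among members, 234 (47.2%) had 1 wide cluster beside them, 55 (11.1%) had 1 on each side and 207 (41.7%) had none. The same shares were 39.5%, 7.76% and 52.7% for isolated clusters, and 40.9%, 10.1% and 49.0% for other narrow clusters. Members with no wide neighbour had a median of 0.45, and those between a pair of wide clusters 0.39. The corresponding medians were 0.65 and 0.42 for isolated clusters and 0.52 and 0.48 for other narrow clusters. The score of a member and the mean score of its neighbours showed no relation (Spearman correlation -0.01 across 496 members).

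A few members were far above the rest. The highest, on 2R at 13151599 to 13154218, reached 3.20 (combined), 3.53 (replicate 1) and 2.93 (replicate 2) on the log2 scale. Its neighbours were 1017 and 2487 bp away and scored 0.71 and 0.40. The highest member of 2L, at 13214725 to 13217283, had 3.01 (combined), 3.23 (replicate 1) and 2.87 (replicate 2), and lay 1539 bp from a cluster of 10956 bp. On 3R the highest was at 6981538 to 6984017, with 2.97 (combined), 3.19 (replicate 1) and 2.30 (replicate 2). In the combined list 83 bp separated it from a neighbour scoring 0.36, whereas in replicate 2 a single cluster of 4614 bp covered both, so the replicate 2 score is that of the wider cluster.

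Further members of high score were found on all 4 arms. On 3R, 16977248 to 16980041 had 2.78 (combined), 3.15 (replicate 1) and 2.46 (replicate 2). Also on 3R, 16603030 to 16605754 had 2.71, 3.00 and 2.45 in the same lists. On 2R, 3135409 to 3139340 had 2.70, 2.82 and 2.63, and both of its neighbours were weak, at 0.11 and 0.28. The highest member of 3L, at 15502924 to 15506100, had 2.38, 2.79 and 2.04, and the 2L member at 22244952 to 22248893 had 2.24, 2.30 and 2.24. These 8 had a lower score in replicate 2 than in replicate 1, as did 67.8% of all autosomal clusters matched in both. Among members with a match in both replicates, the scores differed most at 2R 17061639 to 17063816, with 2.00 in replicate 1 and 1.08 in replicate 2, and in the other direction at 2L 21523976 to 21526746, with 1.61 and 2.43.

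At the low end the members were close to a score of 0, and 3 of the lowest 4 were not found in replicate 2. The lowest, on 3R at 6206176 to 6207738, had 0.03 in the combined list and 0.12 in replicate 1 and had no cluster in replicate 2. The same held for 3L 18780525 to 18781905 (0.09, and 0.22 in replicate 1) and 3L 534634 to 536129 (0.09, and 0.23 in replicate 1). The fourth, on 3R at 7602972 to 7604891, had 0.11 in the combined list and 0.34 in replicate 2. It touched a replicate 1 cluster that matched another combined cluster better. That last member lay between neighbours of 1.71 and 1.46, far above its own score.

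The tightest spacing left under 100 bp between clusters. The 2L member at 482492 to 486053 had gaps of 38 and 28 bp and scored 0.38, between neighbours of 1.77 and 1.48. The one at 2L 11279074 to 11281186 had gaps of 36 and 37 bp and scored 0.34, with 0.45 in replicate 1 and no cluster in replicate 2. On 3R, 10516684 to 10519915 had gaps of 48 and 81 bp and scored 0.33. Of these tightest members only the one on 2R, at 19567523 to 19569660 with gaps of 66 and 67 bp, had a match in each replicate, with 0.51 (combined), 0.56 (replicate 1) and 0.57 (replicate 2).

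Members lay singly or in short runs. Of 344 runs of consecutive members, 233 held a single member, 79 held 2, 26 held 3, 4 held 4, and the longest held 5 and 6. Runs of 2 or more took in 263 of the 496 members (53.0%). The run of 6 spanned 19541 bp of 3R from 20742110 to 20761650, and its clusters covered 60.2% of that span. Its members scored 0.54, 0.39, 0.34, 1.04, 0.65 and 0.58 from left to right in the combined list. Replicate 1 held the first, the fifth and the sixth of them, at 0.59, 0.93 and 0.54, and replicate 2 held these at 0.59, 0.70 and 0.68 and the second at 0.50. The member with the highest score in the combined list, the fourth, was 1148 bp wide and was in neither replicate.

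**Figure D4:**
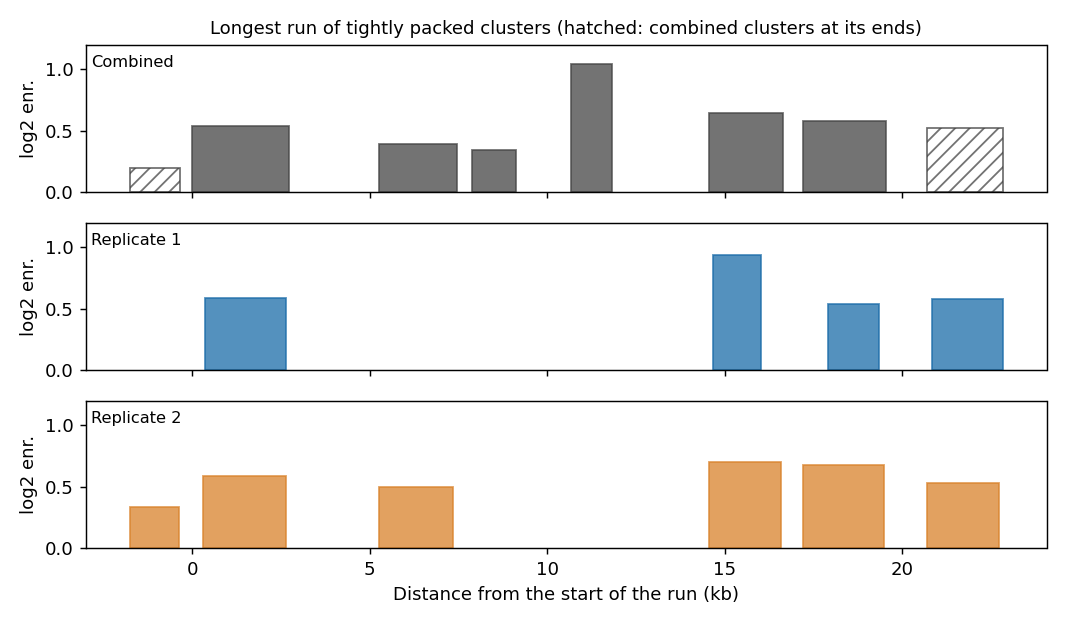
The longest run of tightly packed clusters, on 3R, in the combined list (top) and in replicates 1 and 2, with distance from the start of the run in kb on the horizontal axis and log2 enrichment as bar height; each bar spans 1 cluster, and hatched bars are the combined clusters next to the run. The fourth member, at 1.04 in the combined list, has no counterpart in either replicate.

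The run of 5 was more compact. It lay on 3R from 16919053 to 16934730, its clusters covered 93.3% of the 15678 bp, and its scores were 1.46, 0.97, 0.79, 0.37 and 0.39 from left to right in the combined list. Replicate 2 held all 5, at 1.31, 0.93, 0.83, 0.44 and 0.45, and replicate 1 held the first 3, at 1.62, 1.17 and 1.03. The scores declined along the run in the same order in each list, apart from the last pair. Of the 4 runs of 4, those on 3L from 9427386 to 9441215 and on 2R from 19584216 to 19597558 had 3 members found in replicate 1 and 4 in replicate 2. The run on 2L from 8092521 to 8105322 had 1 found in each, and that on 3L from 8420027 to 8430826 had 0 in replicate 1 and 2 in replicate 2, so repeatability differed between runs of equal length.

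By the rule, every run lay within a longer row of clusters, since each member has a cluster under 3000 bp away on both sides. Such rows could also hold wide clusters. Counting every autosomal cluster within 3000 bp of the next, 304 rows held members, with a median of 4 clusters. The longest row had 13 clusters over 80.4 kb of 2R, from 9827653 to 9908046, of which 5 were members. Its members scored 0.32, 0.81, 1.24, 0.84 and 0.23 in the combined list, against 2.15 and 2.03 for the wide clusters at 9875759 to 9880600 and 9893237 to 9898334 that stood among them. In replicate 1 the 3 middle members had 1.02, 1.40 and 0.92 against 2.71 and 2.25 for those wide clusters, and in replicate 2 they had 0.72, 1.17 and 0.76 against 2.13 and 1.92. The first member was missing in replicate 1 and the last in replicate 2.

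The 4 arms differed in how many of their clusters were packed, but the replicates did not repeat the order. In the combined list members made up 12.7% of the clusters of 3R, 12.5% of 2R, 10.5% of 2L and 9.27% of 3L. With the rule applied in each replicate list the shares were 8.29 ± 0.88% on 3R, 11.2 ± 1.16% on 2R, 9.71 ± 1.40% on 2L and 7.60 ± 0.32% on 3L (SD, n = 2). The replicates thus put 3R below 2R by more than their spread, and 3L was last in the combined list and in replicate 1. In replicate 2 the lowest share was on 3R, at 7.67% against 7.83% on 3L. The share of 2R was above that of 3R and 3L in both replicates.

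The limits of the rule passed through a continuous range of widths and gaps. The widest members, of 3977 bp on 2R and 3983 bp on 3L, scored 1.21 and 1.74, and the nearest wider clusters with the same spacing, of 4006 bp on 2R and 4041 bp on 2L, scored 0.60 and 0.73. The members with the longest gap were neighbours on 3R, 2996 bp apart, and scored 0.38 and 0.45. Just beyond that limit lay narrow clusters with a gap of 3004 bp on 3R, scoring 0.35, and of 3009 bp on 2R, scoring 0.54.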

How the data were processed

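Cluster lists of 2 immunoprecipitated libraries and of their replicate set were analysed. Per the submitters' processing notes, Bowtie 0.12.7 aligned the reads. Positions are, per the file headers, in FlyBase release 5. How clusters were called, how input was used and how replicates were merged is not given in the sources used here. Scores deposited by the authors were taken as log2 values, because differences between scores that recur in the combined list equalled base-2 logarithms of small whole-number ratios at 167 of 8128 differences (tolerance 1e-08), base-10 ones at 11 and natural ones at 0.

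Gaps, overlaps (1 bp) and mutual best matches, the pairs of clusters that overlap each other most, were computed with Python 3.11.15, numpy 2.4.6, pandas 2.3.3 and scipy 1.17.1, and checked on simulated lists. Percentiles are interpolated. Replicates were averaged with their SD. Alternatives were other width, gap and score limits, enriched clusters only, 50% reciprocal overlap, other isolation distances, width matching, and each replicate left out.

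Members, comparison classes and lists were chosen with earlier results of these data known. The named regions followed a rule: the 8 highest members found in both replicates, the 4 lowest, the highest of each arm, the longest runs, the 4 tightest, the largest replicate differences, and those at the limits. The longest row of clusters was chosen after its values were seen. The gene table used here follows release 6, so no gene was assigned and no sequence is shown.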

Additional observations from a re-analysis of the deposited data

How the results depend on the processing

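Over 54 alternatives of 6 results, 28 stayed within the spread or within 1.5 times the count, 25 moved and 1 changed sign. Without replicate 1 or 2 the packed minus isolated difference ran from -0.19 to -0.15, the share of members found in the remaining replicate from 62.7% to 69.4%, bridged gaps from 1.76% to 1.81% and the rule met again from 33.3% to 44.0%. With members in the upper 50% of scores, 248 by construction, set against all isolated clusters, the difference was 0.031, where only the packed side had been cut on its score. The longest run was then 3, 88.7% of members were found in both replicates, 0.578% of gaps were bridged and 54.2% met the rule again. With the upper 50% taken on both sides (added after seeing the data) the difference was -0.43, and at 2000 bp or wider (also added then) it was -0.31, with 81.8% found in both. It was -0.27 with width matching, -0.26 with isolation at 20000 bp and -0.20 with combined scores. With a width limit of 3000 bp it was -0.14, 44.0% of members were found in both and 1.87% of gaps were bridged, and with 5000 bp 1.83% were bridged. A gap limit of 2000 bp gave 316 members, a difference of -0.19, 46.8% found in both, 2.13% of gaps bridged and 29.7% meeting the rule again. A limit of 4000 bp gave a difference of -0.14 and 1.59% bridged. With 50% reciprocal overlap 0.813% were bridged. The cause of these shifts was not tested. No paired analysis was possible because the inputs that share replicate numbers with the immunoprecipitations have no values here. Depth is unknown for these lists, so it is not known how far it limits finding weak members in 1 library.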

Other observations

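Tightly packed clusters were spread unevenly along the arms. Of 196 bins of 500000 bp, 51 (26.0%) held no member, and 36 bins with 5 or more held 246 of the 496 members (49.6%). Those 36 bins were picked by their count of members, and the share of all autosomal clusters in them was not computed. The richest bin, on 3L from 3000001 to 3500000, held 14 members, and the rule applied in the replicate lists found 2 packed clusters there in replicate 1 and 5 in replicate 2. On 2R from 19500001 to 20000000 there were 13 members, with 5 and 9 packed clusters in replicates 1 and 2. On 2L from 10000001 to 10500000 there were 11 members, with 8 and 10. The first of these bins had far fewer packed clusters in the replicate lists than in the combined list, and the last had nearly as many. Across all bins the packed clusters per bin correlated between replicates with Pearson's r of 0.642 and Spearman's rho of 0.633. The number of members per bin also followed the number of all combined clusters per bin (Spearman's rho 0.730). The bins named above held 49, 46 and 40 combined clusters in that order. Close spacing is part of the rule, and whether the unevenness is particular to packed clusters was not tested.

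A single member, on 3L, had a cluster named as depleted beside it. That was 1 of 23 such clusters in the combined list, and without the depleted clusters the rule gave 495 members.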
